A study of Mus musculus with 4 samples.

Results

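miR-486, miR-144 and miR-22 are microRNAs (miRNAs) known from red blood cells and their precursors, and their levels were compared in whole blood of mice given cadmium and of untreated mice. The loci were chosen by name: mmu-mir-486, mmu-mir-144, mmu-mir-22 and mmu-mir-3107, the opposite-strand copy that takes in the reads of mmu-mir-486, which makes 4 of the 374 annotated miRNA loci listed in at least 1 library. All 4 were listed in each of the 4 small RNA libraries and passed the filter on low counts. The cadmium group (2 libraries) came from Balb/c mice, an inbred albino strain, that drank water containing cadmium, and the control group (2 libraries) from Balb/c mice without that agent. Mice of both groups had free access to feed and water and were 180 days old. The sources used here give no dose, length of treatment or sex. The labels also do not say that each library had its own animal. The p-values therefore measure only how far these 4 libraries lie apart, and part of that may be technical.

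A miRNA is cut from a hairpin precursor as a short double strand, and 1 strand or both enter Argonaute proteins and repress messenger RNAs that match bases 2 to 8, the seed. Red cells keep much of their small RNA after losing the nucleus. miR-144 is made from the same precursor transcript as miR-451a, under the erythroid factor GATA1, and acts in red cell maturation. miR-486 is made from within Ank1, the gene of erythrocyte ankyrin, which ties the membrane skeleton to the membrane, and targets the transcription factor FOXO1. miR-22 is expressed widely, including in maturing red cells, and is also known from blood stem cells. miR-451a was not analysed here.

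The sequences show which strand of each hairpin was counted, since each list gives a single window per locus. The hairpins and mature forms of miR-144 and miR-22 are RefSeq entries of build GRCm38.p6, both on the plus strand of chromosome 11. In the hairpins the capitals mark the window counted in all 4 libraries, and in the mature forms they mark the seed.
miR-144 hairpin, chr11:78073005-78073070: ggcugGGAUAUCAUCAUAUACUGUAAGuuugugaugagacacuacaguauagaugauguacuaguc
miR-144-5p, counted: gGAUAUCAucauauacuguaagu
miR-144-3p, not in the counted window: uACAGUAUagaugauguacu
miR-22 hairpin, chr11:75463716-75463810: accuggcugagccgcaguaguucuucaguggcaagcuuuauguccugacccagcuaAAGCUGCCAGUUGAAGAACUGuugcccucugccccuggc
miR-22-3p, counted: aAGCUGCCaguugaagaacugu
miR-22-5p, not in the counted window: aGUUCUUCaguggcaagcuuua

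For miR-144 the counted strand was therefore miR-144-5p, so every miR-144 value given here is a value of the 5p strand. For miR-22 it was miR-22-3p. Each window stopped 1 base short of the 3′ end of the RefSeq form. miR-144-5p and miR-22-3p shared their seed with 0 of the other RefSeq mouse miRNAs among 1679 names compared, and no other listed locus carried either seed. The uncounted miR-144-3p shares bases 2 to 7 with miR-101a-3p. The miR-144 window (chr11:78073010-78073031) lay outside annotated host genes, 99 bases upstream of the Mir451a hairpin when measured between the hairpins. The miR-22 window (chr11:75463772-75463792) lay in an exon of its noncoding host transcript Mir22hg and in an exon of a transcript of Tlcd2 without coding annotation at that place. The miR-486 window (chr8:23142587-23142608, plus strand) and the miR-3107 window (chr8:23142627-23142648, minus strand) lay 18 bases apart in an intron of Ank1, within hairpins that share 90 bases, and in an intron of the antisense gene Gm15816. Coordinates are those of mm10.

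With cadmium, miR-486 and miR-144-5p were lower with similar fold changes, while miR-22 was not called. The level of miR-486 with cadmium was 0.661 times that in controls (log2 fold change -0.60 ± 0.07, SE), and the level of miR-144-5p was 0.668 times that in controls (-0.58 ± 0.15). miR-22 had -0.10 ± 0.08. In the same test 40 of 276 tested loci passed the threshold, an edgeR adjusted p under 0.05. Of these 18, or 6.52% of those tested, were lower with cadmium and 22, or 7.97%, were higher. In scaled level the groups did not overlap for miR-486, miR-3107, miR-144-5p and miR-22, each lower with cadmium, which was so for 30.4% of all tested loci. The miR-144-5p fold change leaned on control 1, being -0.34 without it, where miR-486 stood at -0.55. Scaling to total counts ended the miR-144-5p call but not that of miR-486. In these libraries fewer red cells and less of a miRNA per red cell cannot be told apart.

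Depth and agreement of the libraries bear on every value. Reads of annotated loci, counted again at every copy, summed to between 14383852 and 15565712 in the cadmium libraries and between 24622926 and 35244119 in the controls. With each mature sequence counted once, the totals were 8889834 and 9570319 with cadmium and 21413530 and 15158576 in controls. The controls lay further apart: the median locus differed 1.12-fold between the cadmium libraries and 1.21-fold between the controls. With 1 library left out, its group holds a single library, and the spread then comes from the other pair alone, the lone library being assumed to vary like it. In such fits the count of 40 called loci was 8 without cadmium library 1, 9 without cadmium library 2, 105 without control library 1 and 122 without control library 2.

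miR-486 was the most abundant of 211 tested sequences. It had 2610337 and 2941775 reads in cadmium libraries 1 and 2, and 8206214 and 5498191 reads in control libraries 1 and 2. With each mature sequence counted once, it held 29.4% and 30.7% of the annotated miRNA reads in the cadmium libraries and 38.3% and 36.3% in the controls. Both cadmium libraries were thus below both controls. The mean share was 30.1% ± 0.973 with cadmium and 37.3% ± 1.45 in controls (SD, n = 2 each). After trimmed-mean (TMM) scaling its level was 167228 ± 8297 CPM (counts per 1000000 reads of tested loci) with cadmium and 253127 ± 11341 CPM in controls (SD, n = 2 each). The test across all loci called it lower (edgeR adjusted p = 0.00204). With the spread taken from the control pair alone, it was called without cadmium 1 (edgeR adjusted p = 0.0488) and without cadmium 2 (0.00694). The fits without a control library also called it, but took the spread from the closer cadmium pair alone. Scaling to the upper quartile gave -0.35 and no call (adjusted p = 0.137).

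miR-3107, listed on the opposite strand with the same mature sequence, gave -0.60 ± 0.07 and is no second observation. Its count was 2598121 and 2927124 in the cadmium libraries and 8177981 and 5478419 in the controls, a little under that of miR-486 in each. With 1 locus kept per mature sequence, which counts these reads once, miR-486 stood at -0.61 (edgeR adjusted p = 0.00640).

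miR-144-5p had 173746 and 183886 reads in cadmium libraries 1 and 2, and 584204 and 306608 reads in control libraries 1 and 2. Its share of the annotated reads was 1.95% and 1.92% in the cadmium libraries and 2.73% and 2.02% in the controls. The groups did not overlap, but control 2 lay close to the cadmium libraries and control 1 stood well above. Its scaled level was 10780 ± 56.3 CPM with cadmium and 16130 ± 3481 CPM in controls (SD, n = 2 each). The cadmium libraries differed 1.01-fold from each other and the controls 1.36-fold. The test called it lower (edgeR adjusted p = 0.0359). Without control 1 the log2 fold change was -0.34 and without control 2 it was -0.79, both past the threshold with the spread taken from the cadmium pair alone, which differed by little. The call was lost without cadmium 1 (adjusted p = 0.284) or cadmium 2 (adjusted p = 0.240), and with total counts (-0.28, adjusted p = 0.167). The difference in mean share was -0.438 percentage points, and -0.0847 points without control 1.

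miR-22 had 489165 and 495337 reads in cadmium libraries 1 and 2, and 980754 and 725242 reads in control libraries 1 and 2. Its share was 5.50% and 5.18% in the cadmium libraries and 4.58% and 4.78% in the controls, so that it was larger with cadmium. Its TMM-scaled level was 29692 ± 772 CPM with cadmium and 31771 ± 792 CPM in controls (SD, n = 2 each), so that it was smaller with cadmium. The order of the groups for miR-22 therefore turned with the scaling, and in neither form did the groups overlap. Groups did not overlap in scaled level, in either direction, for 69.9% of all tested loci. The test did not call miR-22 (edgeR adjusted p = 0.439), and its -0.10 became 0.20 with total counts (adjusted p = 0.112). When miR-486 was left out of the total, the miR-22 share was 7.79% and 7.47% in the cadmium libraries and 7.43% and 7.51% in the controls, and the groups overlapped.

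**Figure D1:**
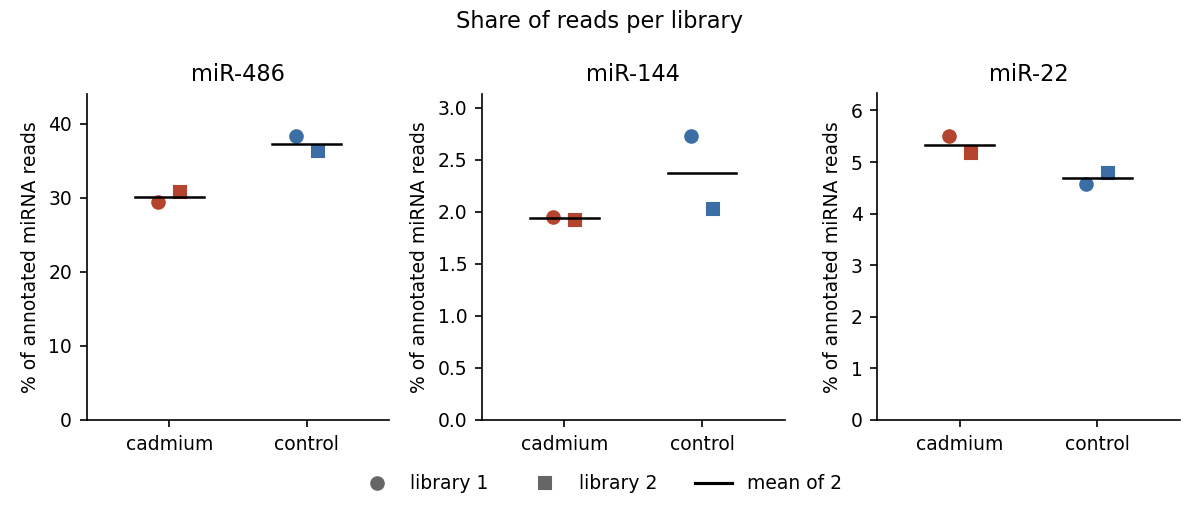
Share of annotated miRNA reads, in percent, held by miR-486, miR-144 (5p strand) and miR-22 (3p strand) in each library, with each mature sequence counted once. Circles and squares are libraries 1 and 2 and bars are means of 2: miR-486 lies at 29.4% and 30.7% with cadmium and 38.3% and 36.3% in controls, miR-144 separates mainly through control 1 at 2.73%, and the miR-22 share is larger with cadmium.

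The scaling moved these loci together. The median log2 fold change of all tested loci was 0.08 with TMM, and it moved by -0.09 with DESeq2 size factors, by 0.13 with totals that leave out loci holding over 10% of a library, by 0.24 with the upper quartile and by 0.30 with total counts. A scaling shifts every locus by nearly the same amount, so distances from that median are all but fixed whichever scaling is used. Taken relative to that median, miR-486 stood at -0.68 under each of these scalings. miR-144-5p stood at -0.66 under TMM and at -0.65 with the upper quartile, and miR-22 at -0.18 under TMM and -0.19 with the upper quartile. With TMM 25 of the 276 loci had a lower fold change than miR-486, 28 a lower one than miR-144-5p, and 114 a lower one than miR-22. The calls differed more. With DESeq2 size factors miR-486 and miR-144-5p were called lower, where 9.78% of tested loci were lower and 7.61% higher. With totals that leave out dominant loci miR-486 was called and miR-144-5p was not, where 5.07% were lower and 13.8% higher. With total counts miR-486 was called (-0.30) and miR-144-5p was not, where 2.9% were lower and 20.7% higher. With the upper quartile neither was called, where 3.26% were lower and 17.4% higher. miR-22 was not called under any of these scalings.

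**Figure D2:**
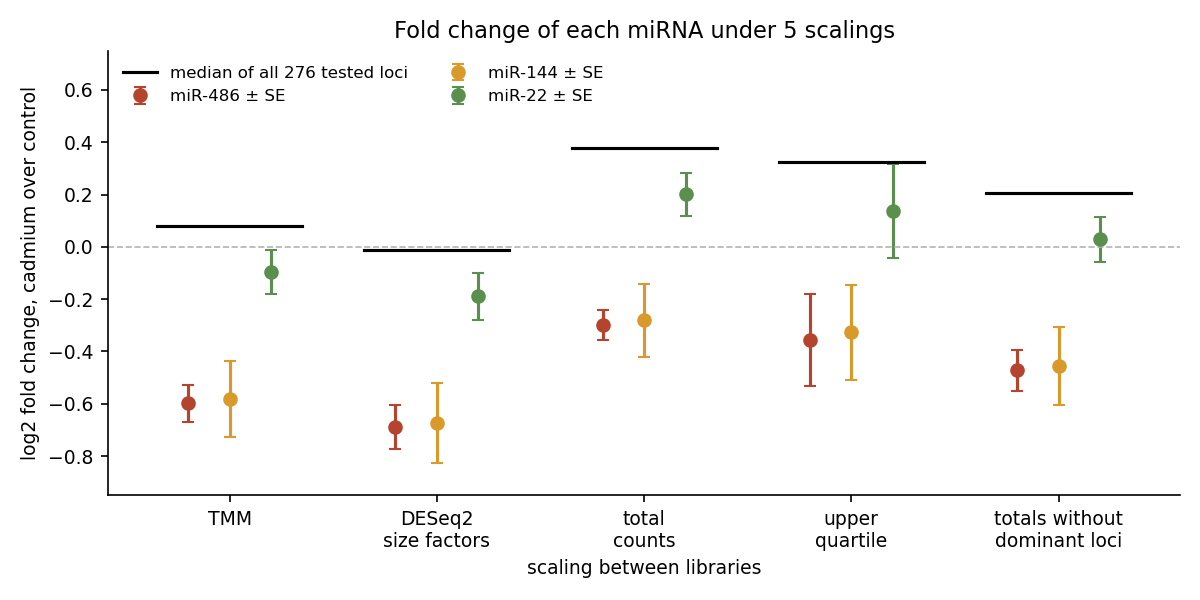
Log2 fold change, cadmium over control, of miR-486, miR-144 and miR-22 with its SE under 5 ways of scaling the libraries, and the median of all 276 tested loci (black bars). All values move together, since a scaling shifts every locus by nearly the same amount, so their distances from the median hardly change. miR-486 and miR-144 lie below the median throughout, and miR-22 crosses 0 with total counts, the upper quartile and totals without dominant loci.

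Ratios of reads within a library need no scaling between libraries. Reads of miR-486 per read of miR-22 were 5.34 and 5.94 in cadmium libraries 1 and 2, and 8.37 and 7.58 in control libraries 1 and 2. The mean ratio was 5.64 ± 0.426 with cadmium and 7.97 ± 0.556 in controls (SD, n = 2 each), 1.41-fold lower with cadmium. Without any one library the log2 difference lay between -0.58 and -0.43. Reads of miR-486 per read of miR-16-1, another abundant red cell miRNA, were 1.26 and 1.32 in the cadmium libraries and 1.99 and 1.83 in the controls. Both ratios were lower in each cadmium library than in each control. They share the miR-486 reads, and miR-16-1 was among the loci most like miR-22, so the ratios are no separate checks.

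Reads of miR-144-5p per read of miR-22 were 0.355 and 0.371 in the cadmium libraries and 0.596 and 0.423 in the controls. The log2 difference of -0.49 became -0.22 without control 1. Reads of miR-486 per read of miR-144-5p were 15.0 and 16.0 in the cadmium libraries and 14.0 and 17.9 in the controls, so that the groups overlapped. The exact two-sided permutation test with 2 libraries against 2 cannot give a p under 0.333. It gave 0.333 for each of these ratios except miR-486 per miR-144-5p, where it gave 1, and 0.333 for the shares of miR-486, miR-144-5p and miR-22.

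**Figure D3:**
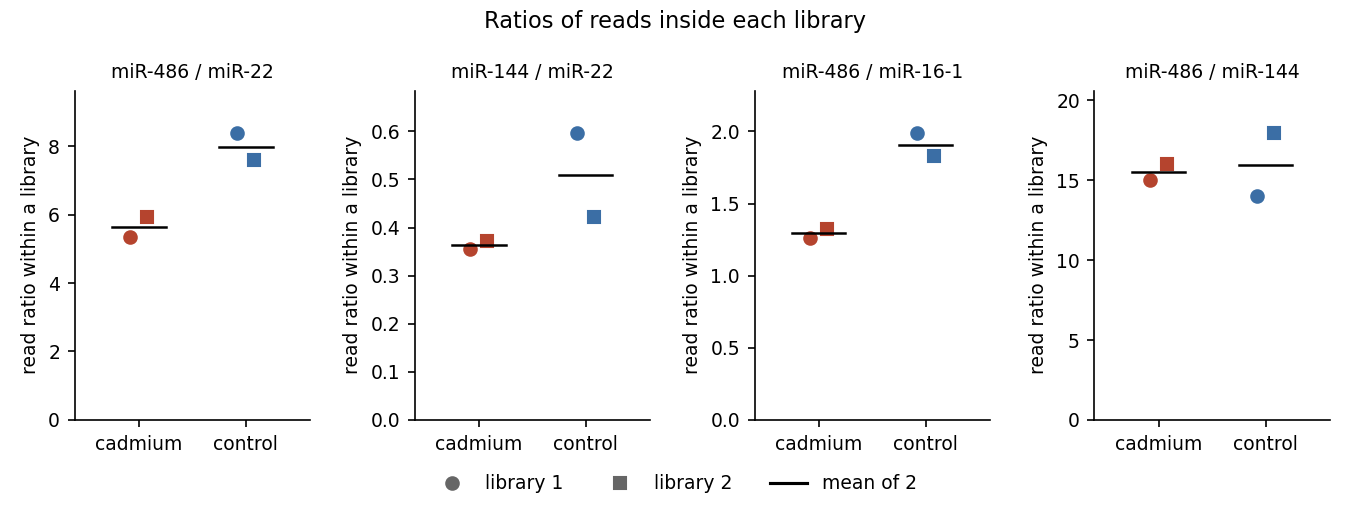
Reads of 1 miRNA per read of another within each library (linear axes from 0). Circles and squares are libraries 1 and 2 and bars are means of 2: miR-486 per miR-22, miR-144 per miR-22 and miR-486 per miR-16-1 are lower in both cadmium libraries than in both controls, and miR-486 per miR-144 overlaps between the groups.

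In the order of mean levels, with each sequence counted once, miR-486 had rank 1, miR-22 rank 4 and miR-144-5p rank 9 of 211. miR-486 lay above miR-16-2, next in order, in each of the 4 libraries. miR-22 ranged from 29146 to 32331 CPM and its neighbour above, miR-30e, from 27660 to 41144 CPM, with miR-22 higher in 2 of the 4 libraries. miR-92a-1, the neighbour below, ranged from 20322 to 27139 CPM and was lower in each library. miR-144-5p ranged from 10740 to 18591 CPM. Its neighbours, miR-93 at 8777 to 15794 CPM and miR-191 at 10950 to 14648 CPM, were each higher than it in 3 libraries, so that these 3 could not be ordered beyond their spread.

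Most other miRNAs of the red cell list were not called. Of the 15 loci on the red cell list, 12 were tested, holding 10 sequences. Of these 12 loci 2 were lower (miR-486 and miR-144), 1 was higher (miR-15b) and 9 did not pass, against 40 of 276 tested loci, or 14.5%, called in either direction. The list's median log2 fold change over loci was -0.04, beside 0.08 for all tested loci. With each sequence counted once it was 0.00066, beside 0.10 for all tested sequences. Over the 7 sequences other than miR-486, miR-144 and miR-22 it was 0.13. The list count of 3 was 1 without either cadmium library, 3 without control 1, 6 without control 2 and 5 with total counts, where 4 were higher. miR-25, miR-451a and miR-96 of the list were not tested. miR-96 was listed with 7 reads in cadmium 2 alone, and the other two were not analysed here.

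miR-16, the most abundant after miR-486 of the red cell loci tested, targets cell cycle genes and is counted once at each of its loci, miR-16-1 and miR-16-2, from nearly the same reads. miR-16-1 had 2068404 and 2222621 reads in the cadmium libraries and 4131712 and 3009228 in the controls, with a fold change of -0.04 ± 0.07 (log2). This turned to 0.26 with total counts, where it passed the threshold (edgeR adjusted p = 0.0194). miR-92a, a target of which is the integrin subunit ITGA5, had -0.05 ± 0.14 at miR-92a-1 and -0.08 ± 0.14 at miR-92a-2, positive with total counts (0.25 and 0.22). Summed over the 7 red cell sequences other than miR-486, miR-144 and miR-22, the level was 157386 and 158928 CPM in the cadmium libraries and 162880 and 158755 CPM in the controls. These TMM-scaled sums overlapped between the groups, and sums under other scalings were not formed. Most of each sum was miR-16, with miR-16-1 at 127860 and 130779 CPM with cadmium and 131483 and 134150 CPM in controls.

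miR-15b, which shares its seed family with miR-16, was 3066 ± 84.8 CPM with cadmium and 1436 ± 144 CPM in controls (SD, n = 2 each), or 1.09 ± 0.13 on the log2 scale (edgeR adjusted p = 0.00207). Its call was lost without cadmium 1 (adjusted p = 0.0754) or cadmium 2 (adjusted p = 0.0587). miR-15a had 0.04 ± 0.12, with a sign that turned under DESeq2 size factors (-0.05). miR-182 and miR-183, which are made from 1 cluster, had 0.13 ± 0.21 and 0.85 ± 0.24 at mean levels of 20.7 and 2.72 CPM. miR-183 missed the threshold (edgeR adjusted p = 0.0531) but was called higher in 5 of 17 alternatives, among them edgeR's exact test (0.0220), total counts (0.0147) and the upper quartile (0.0225). miR-363 had 0.14 ± 0.22.

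**Figure D4:**
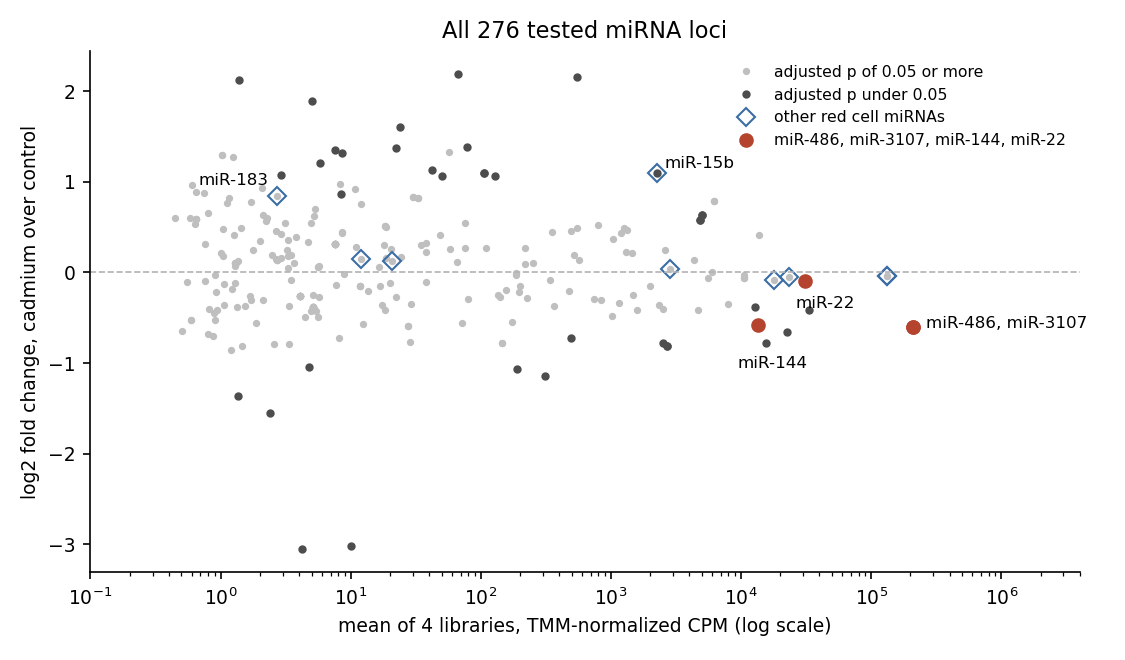
Log2 fold change, cadmium over control, against mean level (TMM-normalized CPM, log scale) of the 276 tested loci, with dark points past an adjusted p of 0.05. miR-486 with its copy miR-3107 is furthest right at -0.60, miR-144 lies at -0.58 and miR-22 at -0.10, and the other red cell miRNAs (diamonds) spread around 0 except miR-15b at 1.09 and miR-183 at 0.85.

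The loci most like each miRNA over the 4 libraries were found from log2 CPM centred on each locus, among loci with a mean of at least 100 CPM. For miR-486 they were miR-30a, at a root mean square difference of 0.0499 log2 units, miR-421 (0.0609) and the lymphocyte miRNA miR-150 (0.0712). miR-30a had -0.66 ± 0.09 and passed the threshold, except with the upper quartile (edgeR adjusted p = 0.0824), without cadmium 1 (0.126) or without cadmium 2 (0.0587). miR-421 and miR-150 had -0.48 ± 0.14 and -0.55 ± 0.18 and did not pass, but passed in 6 and 4 of 19 alternatives, among them the DESeq2 test (adjusted p = 0.0211 and 0.00924). For miR-144-5p they were miR-26b (0.0998), at -0.41 ± 0.13 and not called except in 4 of 18 alternatives, and both copies of miR-181a (0.115), a miRNA of lymphocyte development. miR-181a was lower, at -0.81 ± 0.16 with an edgeR adjusted p of 0.0133. Total counts (0.0550) and a fit that blocks on the replicate number (0.0630) each ended that call. Leaving out cadmium 1 or cadmium 2 also ended it, with the log2 fold change at -0.81 in each. The nearest to miR-22 were miR-340 (0.0285) and both copies of miR-16 (0.0430), of which none passed the threshold. None of these nearest loci of miR-486 and miR-144-5p was on the red cell list. They were picked by likeness in level from 77 candidates for miR-486 and 78 for miR-144-5p, so their fold changes are no separate support.

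Markers of other blood cells were present beside those of red cells, and the summed level of the lymphocyte markers was lower in both cadmium libraries than in both controls. All 8 lymphocyte loci were tested, holding 6 sequences. Of these loci 2 were lower by edgeR's quasi-likelihood test, both copies of miR-181a with the same reads, 2 of 8 beside 6.52% of all tested loci. In TMM-scaled level all 8 were lower without overlap between the groups, beside 30.4% of all tested loci. The copies of miR-181b also had the same reads, so these 8 are 6 sequences. Overlap under other scalings was not tested. The count of called lower loci was 0 with total counts, 0 without either cadmium library, 8 without control 1, 7 without control 2 and 5 by DESeq2. Their summed level, each sequence once, was 4657 and 4558 CPM in the cadmium libraries and 7583 and 6255 CPM in the controls. Of 5 myeloid and pan-leukocyte loci 1 was higher, miR-24-2 at 1.10 ± 0.20, named after its values were seen, beside 7.97% of all tested loci. Its call was lost without either cadmium library. The mature sequences of miR-24-2 and miR-23a each stand at 2 tested loci, so their reads cannot be assigned to the listed locus alone. miR-23a, at 1.33 ± 0.43, was not called (edgeR adjusted p = 0.0730). It was higher by DESeq2, by edgeR's exact test and with total counts, which made the count 2. Its cadmium libraries lay far apart, at 43.3 and 119 CPM, against 31.0 and 33.5 CPM in controls. miR-142, the most abundant locus tested of this list, had -0.07 ± 0.12, miR-27a 0.09 ± 0.20 and miR-146a -0.20 ± 0.32. With all 4 libraries edgeR's quasi-likelihood test called none of these. The sum over the list was 6344 and 5546 CPM with cadmium and 6307 and 5815 CPM in controls. Of 4 platelet and endothelium loci 0 were called by edgeR or DESeq2 and 0 had an unadjusted p under 0.05, while 1, miR-126a, was called lower without control 2. The sum was 212 and 190 CPM with cadmium and 256 and 191 CPM in controls. The part of any of these cells in the lower miR-486 and miR-144-5p was not tested. Of the hepatocyte markers 2 were tested, with 0 called by edgeR or DESeq2 and 0 at an unadjusted p under 0.05, while 1, miR-192, was called lower without control 2. Their sum was 1422 and 1306 CPM with cadmium and 1821 and 1407 CPM in controls. The hepatocyte miRNA miR-122, outside the test, had 102 and 114 reads with cadmium and 16 reads in control 1, and was unlisted in control 2. The myeloid marker miR-223 was not analysed here.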

How the data were processed

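Per the labels' protocols, blood RNA was isolated with a Qiagen miRNeasy kit and made into Illumina small RNA libraries. For each library a deposited list gives the authors' raw count of mature reads per locus, not normalized, with the lowest listed count at 5. The submitters' processing notes name Bowtie 0.12.2, DESeq and the build mm10, without saying which step each served or which annotation was used.

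A name and its star form with the same locus and count were merged, and an unnamed row holding the column total of cadmium 1 was left out. The sequence letters of control 2 were not used, since their length matched the window in only 162 of 693 rows. All libraries listed 289 of the 374 annotated loci. The 277 whose windows shared at least 10 bases in all 4 were tested with edgeR 4.0.16 (TMM, filterByExpr, which left 276, quasi-likelihood F test, two-sided, Benjamini-Hochberg over all tested loci, threshold 0.05) under R 4.3.3; the model held the group alone. TMM factors were 1.13 and 1.09 in the cadmium libraries and 0.892 and 0.912 in the controls. The SE of a fold change is its absolute log2 value over the root of its F. The chi-square per degree of freedom between the libraries of a pair was 60.8 for cadmium and 1023 for control, so neither pair is 1 library listed again. Shares have 95% Wilson intervals that cover counting error only; that of miR-144 in cadmium 1 ran from 1.95% to 1.96%. Annotation is GENCODE M21.

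The loci, the cell type lists and the tests were chosen with earlier results of these data known. Named loci are the 4 loci described, the red cell list, the neighbours in level and the 3 most alike. The rule also named the most abundant loci of the other lists, which are given in sums, those of the myeloid list also by name. DESeq2 1.42.0 and limma 3.58.1 served as alternatives. Python 3.11.15 (pandas 2.3.3, SciPy 1.17.1, matplotlib 3.10.9) served for the rest.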

Additional observations from a re-analysis of the deposited data

How the results depend on the processing

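miR-486 and miR-3107 kept their direction under every alternative run (19 and 18), with log2 fold changes from -0.69 to -0.30, and lost the call with the upper quartile alone (-0.35 and -0.36). Their ranges without 1 library were -0.65 to -0.55 for both. miR-144-5p kept its direction in all 19 alternatives and lost its call in 9: total counts (-0.28), the upper quartile (-0.33), the totals that leave out dominant loci (-0.46), the replicate block (-0.56), 1 locus per sequence (-0.59), identical windows only (-0.63), unlisted loci as 0 reads (-0.61), and without either cadmium library, its range without 1 library being -0.79 to -0.34. miR-22 turned to 0.20, 0.14 and 0.029 with total counts, the upper quartile and totals without dominant loci. Under these 3 scalings miR-16-1 and miR-16-2 turned to 0.26, 0.20 and 0.088, miR-92a-1 to 0.25, 0.20 and 0.071, miR-92a-2 to 0.22, 0.17 and 0.043, and miR-340 to 0.22, 0.16 and 0.043. Without 1 library miR-92a-1 ranged from -0.25 to 0.17, miR-92a-2 from -0.27 to 0.14 and miR-15a from -0.032 to 0.11. miR-15a also turned with DESeq2 size factors (-0.052), the DESeq2 test (-0.052) and identical windows (-0.0024). The 40 calls (22 higher, 18 lower) became 48 (21 and 27) with DESeq2 size factors, 57 (48 and 9) with the upper quartile, 52 (38 and 14) with totals without dominant loci, 65 (57 and 8) with total counts, 26 with a mean CPM of at least 10, 19 with the replicate block, 70 with predicted loci included, and 8 to 122 without 1 library. The red cell list count of 3 became 5 with total counts and ranged from 1 to 6 without 1 library.

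The share difference of miR-486 was -7.25 percentage points, -4.28 with every copy in the total and -8.27 to -6.22 without 1 library. For miR-144-5p it was -1.03 and for miR-22 0.165 with miR-486 left out of the total, and without 1 library -0.790 to -0.0847 and 0.494 to 0.820. The log2 difference of miR-486 per miR-144-5p ranged from -0.21 to 0.14 without 1 library. Apart from the scalings and fewer samples in a fit, the cause of a lost call was not tested. Same-numbered libraries share only a number: their deviations from the group means correlated at 0.0304 across 276 loci, and the fit with that block called 19 loci, 10 higher and 9 lower. With 1 locus per mature sequence miR-3107 has no value of its own. With counts as large as those of miR-486, miR-144-5p and miR-22, precision rests on the agreement of libraries and not on depth.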

Other observations

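A small part of the miR-486 reads was counted at the plus-strand locus and not at its opposite-strand copy miR-3107. This measure was chosen after the values were seen. The excess was 12216 and 14651 reads in cadmium libraries 1 and 2, and 28233 and 19772 reads in control libraries 1 and 2. As a share of the miR-486 reads it was 0.468% and 0.498% in the cadmium libraries and 0.344% and 0.360% in the controls. The share was thus larger in both cadmium libraries, while miR-486 itself was lower in them. The means were 0.483% ± 0.0212 with cadmium and 0.352% ± 0.0110 in controls (SD, n = 2 each; exact two-sided permutation p = 0.333, the smallest this design allows). Without any one library the difference was between 0.116 and 0.146 percentage points. The same excess between the copies miR-16-2 and miR-16-1 was 0.0470% and 0.0478% in the cadmium libraries and 0.0451% and 0.0472% in the controls, and these overlapped.

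Ratios of miR-144-5p and miR-22 to miR-16-1 were also formed after the values were seen. Reads of miR-144-5p per read of miR-16-1 were 0.0840 and 0.0827 in the cadmium libraries and 0.141 and 0.102 in the controls, with a log2 difference of -0.55 that was -0.29 without control 1. Reads of miR-22 per read of miR-16-1 were 0.236 and 0.223 in the cadmium libraries and 0.237 and 0.241 in the controls, a log2 difference of -0.06. Against miR-16-1, miR-144-5p stood lower in both cadmium libraries, and miR-22 differed little. miR-16-1 was itself among the loci most like miR-22, so these ratios are no independent check.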
